A study of Mus musculus with 15 samples.

Results

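The 10 genes described here encode parts of the smooth muscle contractile apparatus: Acta2, Actg2, Myh11, Myl9, Mylk, Cnn1, Tagln, Smtn, Lmod1 and Des. They were taken by symbol from a count table of 47729 features, and each symbol named a row in it. The table comes from macrophages sorted as F4/80+ CD64+ from mouse aorta and sequenced by Smart-Seq2, a method that amplifies the cDNA of a few cells. The cells carried the Olfr2+ label (numbered samples 2, 3 and 4, in 10 columns) or the Olfr2- label (numbered samples 1, 3 and 4, in 5 columns). Both groups came from Apoe-/- mice, written as Apoe dko in the labels, which lack apolipoprotein E and develop atherosclerosis. All were female and on a high fat diet for 4 weeks; the age is not given in the sources used here. Each sort held 100 to 200 cells of a suspension pooled from the aortas of 4 mice, so the labels do not tie a sample to an animal. The spread on which p-values rest is therefore that of these samples, and it may be technical. The study asked how macrophages with and without Olfr2 differ, and smooth muscle is the main cell type of the vessel wall around them.

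Smooth muscle cells form the media of the aorta and hold its tone. In them, myosin filaments built on Myh11 pull on actin filaments built on Acta2 once Mylk, activated by a rise in calcium, phosphorylates the light chain Myl9. Cnn1, Tagln, Smtn and Lmod1 bind or build the actin filaments, and Des forms the intermediate filaments that link them. Many of these genes are switched on by serum response factor (Srf) and its co-activator myocardin (Myocd), which act at a promoter motif named the CArG box. In atherosclerosis, aortic smooth muscle cells can lose this programme.

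The stretch of 250 bases before the annotated start is shown for Acta2 and Myl9, 2 members with a correlation among the highest of the set over the columns, and for Cnn1, the member with the most negative fitted fold change. The sequences are from RefSeq on GRCm38.p6, read 5′ to 3′ on the gene's strand, and capitals mark matches to the CArG box with at most 1 mismatch in its A/T core. Both strands were searched, and no other motif was.
Acta2: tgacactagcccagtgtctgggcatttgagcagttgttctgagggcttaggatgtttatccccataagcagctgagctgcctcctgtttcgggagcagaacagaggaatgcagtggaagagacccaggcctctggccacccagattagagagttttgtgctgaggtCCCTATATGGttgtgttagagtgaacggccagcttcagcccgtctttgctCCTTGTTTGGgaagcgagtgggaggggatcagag
Myl9: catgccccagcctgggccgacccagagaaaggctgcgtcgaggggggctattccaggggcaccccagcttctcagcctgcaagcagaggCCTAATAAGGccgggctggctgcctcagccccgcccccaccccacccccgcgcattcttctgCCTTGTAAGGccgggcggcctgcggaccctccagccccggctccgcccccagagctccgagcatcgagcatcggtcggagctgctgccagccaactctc
Cnn1: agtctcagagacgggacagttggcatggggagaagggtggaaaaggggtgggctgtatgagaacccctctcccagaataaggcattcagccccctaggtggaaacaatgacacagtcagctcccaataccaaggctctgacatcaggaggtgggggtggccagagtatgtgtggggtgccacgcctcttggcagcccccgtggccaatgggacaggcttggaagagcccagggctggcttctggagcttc
The Acta2 stretch (chr19:34255374-34255623, minus strand) held 2 matches with 1 core mismatch each, CCCTATATGG at 84 and CCTTGTTTGG at 34 bases before the start. In Myl9 (chr2:156775214-156775463, plus strand), CCTAATAAGG matched exactly at 161 bases and CCTTGTAAGG with 1 mismatch at 99 bases before the start. No match with at most 1 core mismatch occurred in the Cnn1 stretch (chr9:22099003-22099252, plus strand), nor in those of Des, Lmod1, Smtn and Mylk, and stretches for 7 of the 10 members were at hand. Of 32851 mouse promoter stretches of the same length, 1.47% held an exact match and 8.59% a match with at most 1 mismatch.

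Column totals put the libraries in separate sets. The deeper set comprised 7 Olfr2+ columns, 4 of sample 2 and 3A, 3B and 3C of sample 3, with 76.0 to 95.6 M counts (M, 1000000). The shallower Olfr2+ columns, 3D, 4A and 4B, held 29.9 to 37.6 M, and the 5 Olfr2- columns held 30.5 to 53.2 M. Depth and label therefore cannot be told apart over all columns, and each member's fold change is given again for the columns below 60 M. The Olfr2 transcript went against the label, with 1, 9 and 8 counts in Olfr2+ samples 2, 3 and 4, against 76, 34 and 35 counts in Olfr2- samples 1, 3 and 4, so groups below are libraries labelled Olfr2+ or Olfr2-. Adgre1, which encodes F4/80, lay between 123 and 312 CPM (counts per 1000000) in the deeper Olfr2+ columns, between 46.0 and 84.3 CPM in the shallower Olfr2+ columns and between 9.48 and 235 CPM in Olfr2- columns. Fcgr1, which encodes CD64, was at 0.544 to 103 CPM, 0.772 to 3.43 CPM and 4.18 to 19.95 CPM in the same order of sets.

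The contractile genes did not move as a block. Over all columns, 5 of them (Myl9, Smtn, Lmod1, Acta2 and Mylk) had higher fitted levels in libraries labelled Olfr2+ at an unadjusted p under 0.05. Another 2 (Cnn1 and Des) had lower fitted levels. Of the 24362 genes tested, 4161 were higher and 3660 lower at that threshold. At an adjusted p of 0.05, 0 of the 10 passed in either direction, where 1.12% of the genes tested were called higher and 0.46% lower. Their high values lay in the deeper Olfr2+ columns, where the leading gene by counts was Smtn in 3 columns, Myl9 in 2, Lmod1 in 1 and Myh11 in 1. In the shallower Olfr2+ columns these genes were below or within the range of the Olfr2- columns, apart from Mylk in column 3D. In bulk RNA of this kind, fewer cells of a type and less RNA per cell cannot be told apart.

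**Figure D1:**
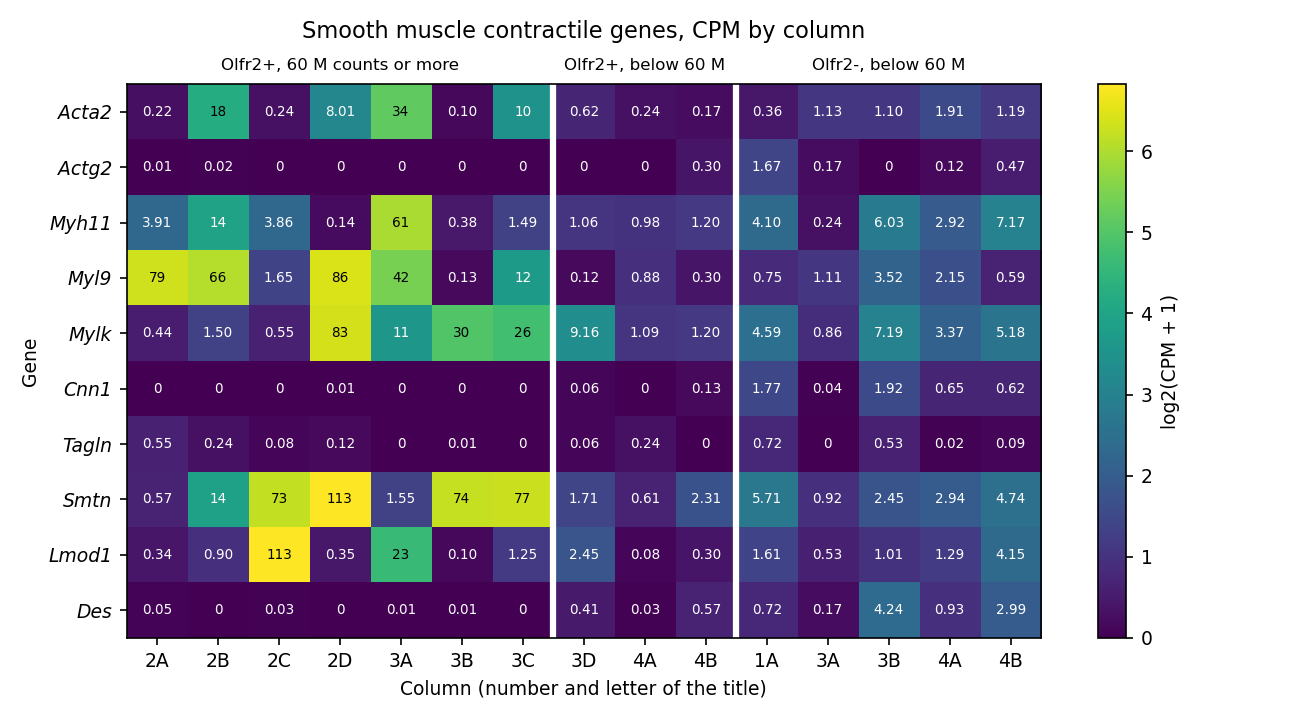
Each cell gives the CPM of a contractile gene (rows) in a column (horizontal axis, number and letter of the title), coloured by log2(CPM + 1). The deeper Olfr2+ columns are on the left, the shallower Olfr2+ columns in the middle and the Olfr2- columns on the right. The leading gene changes from column to column on the left, with Myl9 at 79.3 CPM in 2A and Lmod1 at 112.7 CPM in 2C.

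Of the actins, Acta2, the main actin of vascular smooth muscle, was at 6.80, 13.8 and 0.208 CPM in Olfr2+ samples 2, 3 and 4, against 0.361, 1.12 and 1.60 CPM in Olfr2- samples 1, 3 and 4. In CPM of totals, Olfr2+ samples 2 and 3 were above every Olfr2- sample and Olfr2+ sample 4 was below them all. The fitted log2 fold change was 4.00 (edgeR, SE 1.74, adjusted p = 0.125) over all columns, and -0.63 (edgeR, SE 1.01, adjusted p = 0.842) below 60 M. By column, 4 of the 7 deeper Olfr2+ columns lay above every Olfr2- column and the other 3 lay below every one. Actg2, the smooth muscle actin of gut and other visceral muscle, had 3, 0 and 9 counts in the Olfr2+ samples, against 51, 9 and 20 counts in the Olfr2- samples. As CPM these were 0.00824, 0 and 0.133 in Olfr2+ samples, against 1.67, 0.106 and 0.271 in Olfr2- samples, so only Olfr2+ sample 4 entered the Olfr2- range. The 0 in Olfr2+ sample 3 allows up to 0.0110 CPM by a limit of 3 counts, which covers counting error only. Its fitted log2 fold change was -3.02 (edgeR, SE 1.49, adjusted p = 0.159), and -2.13 (edgeR, SE 1.56, adjusted p = 0.632) below 60 M. Actins are close in sequence, so reads may have been split between Acta2, Actg2 and Actb, and their counts are uncertain to that extent.

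The motor genes had their highest levels in Olfr2+ samples 2 and 3. Myh11, the smooth muscle myosin heavy chain and the most specific marker of the set, was at 5.72, 19.8 and 1.08 CPM in Olfr2+ samples, against 4.10, 2.41 and 4.76 CPM in Olfr2- samples. Olfr2+ sample 3 stood out, and 5220 of its 5398 counts came from column 3A. The log2 fold change was 2.47 (edgeR, SE 1.54, adjusted p = 0.241). Below 60 M it was -0.96 (edgeR, SE 1.06, adjusted p = 0.763), where both Olfr2+ samples lay below the 3 Olfr2- samples. Myl9, the regulatory light chain, was at 58.0, 16.7 and 0.623 CPM in Olfr2+ samples, against 0.755, 2.01 and 1.47 CPM in Olfr2- samples. Olfr2+ sample 4 was again the lowest of the 6 in CPM of totals. With TMM scaling, which corrects totals for the make-up of the library, Myl9 averaged 48.0 ± 63.1 CPM in Olfr2+ samples and 0.979 ± 0.525 CPM in Olfr2- samples (SD, n = 3 each). Its log2 fold change of 5.61 (edgeR, SE 1.71, adjusted p = 0.0693) was the largest positive one of the 10, and below 60 M it was -1.14 (edgeR, SE 1.02, adjusted p = 0.701). Mylk, the kinase of this light chain, was at 21.2, 20.6 and 1.14 CPM in Olfr2+ samples, against 4.59, 3.23 and 4.15 CPM in Olfr2- samples. Its log2 fold change was 3.22 (edgeR, SE 1.53, adjusted p = 0.149) over all columns and 1.15 (edgeR, SE 1.30, adjusted p = 0.771) below 60 M, where column 3D held 310 of the 387 Olfr2+ counts.

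Fitted changes of the actin-binding members had both signs. Smtn encodes smoothelin, which is tied to the contractile state, and was at 50.2, 43.2 and 1.36 CPM in Olfr2+ samples, against 5.71, 1.49 and 3.72 CPM in Olfr2- samples. As for Acta2 and Myl9, 2 Olfr2+ samples were above and 1 below every Olfr2- sample. The fitted log2 fold change was 4.57 (edgeR, SE 1.54, adjusted p = 0.0815), and -0.34 (edgeR, SE 1.07, adjusted p = 0.925) below 60 M. Lmod1, which encodes leiomodin 1, a nucleator of actin filaments, was at 28.9, 8.01 and 0.178 CPM in Olfr2+ samples, against 1.61, 0.705 and 2.53 CPM in Olfr2- samples. Of the 10531 counts in Olfr2+ sample 2, column 2C held 10384. Its log2 fold change was 4.49 (edgeR, SE 1.75, adjusted p = 0.103), and 0.48 (edgeR, SE 1.05, adjusted p = 0.886) below 60 M.

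Cnn1, or calponin 1, which slows the myosin motor on actin, did not overlap between the labels, as 22.1% of the genes tested did not on the lower side. It had 1, 2 and 4 counts in Olfr2+ samples, against 54, 63 and 47 counts in Olfr2- samples, so every Olfr2+ sample was below every Olfr2- sample. The 7 deeper Olfr2+ columns held 1 count in 602.7 M, the shallower Olfr2+ columns 6 in 101.3 M, and the Olfr2- columns 164 in 189.4 M. Its log2 fold change was -4.78 (edgeR, SE 1.44, adjusted p = 0.0686) over all columns and -3.21 (edgeR, SE 1.20, adjusted p = 0.435) below 60 M, without overlap in both. Tagln, or transgelin, an early and abundant marker of smooth muscle, had 88, 3 and 9 counts in Olfr2+ samples, against 22, 17 and 4 counts in Olfr2- samples. These groups overlapped at levels under 1 CPM, with a log2 fold change of 0.14 (edgeR, SE 1.28, adjusted p = 0.943) whose direction turned under 3 of 7 other settings, scaling by library totals among them. Below 60 M it was -0.72 (edgeR, SE 1.66, adjusted p = 0.893). Per kilobase of exon, Tagln was the lowest member in Olfr2- columns.

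Des, or desmin, the intermediate filament protein of muscle, had 7, 16 and 18 counts in Olfr2+ samples, against 22, 144 and 135 counts in Olfr2- samples. The groups did not overlap in CPM, at 0.0192, 0.0587 and 0.267 CPM in Olfr2+ samples and 0.722, 1.69 and 1.83 CPM in Olfr2- samples. With Cnn1 this makes 2 of the 10 members, against the 22.1% given above. All 7 deeper Olfr2+ columns lay below every Olfr2- column, as they did for Cnn1. The log2 fold change was -2.80 (edgeR, SE 1.30, adjusted p = 0.143), and -1.34 (edgeR, SE 0.97, adjusted p = 0.628) below 60 M. There the groups overlapped with TMM scaling. In CPM of totals they did not, with 0.414 CPM in Olfr2+ column 3D and 0.267 CPM in Olfr2+ sample 4. Genes annotated on the opposite strand share exon bases with Smtn, Mylk, Des and Tagln, from 39 to 1241 bases a gene. Smart-Seq2 does not mark strand, so reads from these partners cannot be told apart and the 4 counts are uncertain to that extent.

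Each of the 10 genes passed the filter on low counts in both comparisons. Over all columns, 0 rose and 0 fell by edgeR's quasi-likelihood test with a Benjamini-Hochberg adjusted p under 0.05. Over all genes 273 were called higher and 112 lower, and with scaling by library totals alone 80 were called higher and 256 lower. At an unadjusted p under 0.05, 7 of the 10 members and 7821 of 24362 genes stood. The members' median log2 fold change was 2.85, against 0.24 over all genes tested, and with library totals alone these medians were 1.54 and -0.87. In TMM-scaled CPM, groups did not overlap for 0 members on the higher and 2 on the lower side, against 13.5% and 22.1% of genes tested. Another tool, DESeq2, called 5 members higher (Acta2, Myl9, Mylk, Smtn and Lmod1) and Cnn1 lower, where it called 4017 genes higher and 2690 lower in all, and limma-voom called 0 members and 0 genes. Without Olfr2+ sample 4, edgeR called Myl9 and Smtn higher and Cnn1 lower. Myl9 also passed without Olfr2+ column 2C, Myl9 and Smtn without Olfr2+ column 3D, and Cnn1 without Olfr2- column 3A. Over the 20 omissions of a sample or column, 0 to 1026 genes in all were called higher and 0 to 488 lower.

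In the columns below 60 M counts, which set Olfr2+ samples 3 and 4 (columns 3D, 4A and 4B) against the same 3 Olfr2- samples, 0 members passed in either direction. The share of all 29989 genes called was 0.0% higher and 0.0% lower by edgeR, which found 1 member (Cnn1, lower) and 3127 genes at an unadjusted p under 0.05. DESeq2 called 0 members, with 1043 genes higher and 213 lower, and limma-voom called 0 members and 0 genes. The members' median log2 fold change was -0.84, against -0.43 over all genes tested. In TMM-scaled CPM, groups did not overlap for 0 members on the higher side and for Cnn1 and Myh11 on the lower side, against 9.28% and 17.1% of genes. As both comparisons use the same Olfr2- samples and share Olfr2+ columns, their values are not independent.

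**Figure D2:**
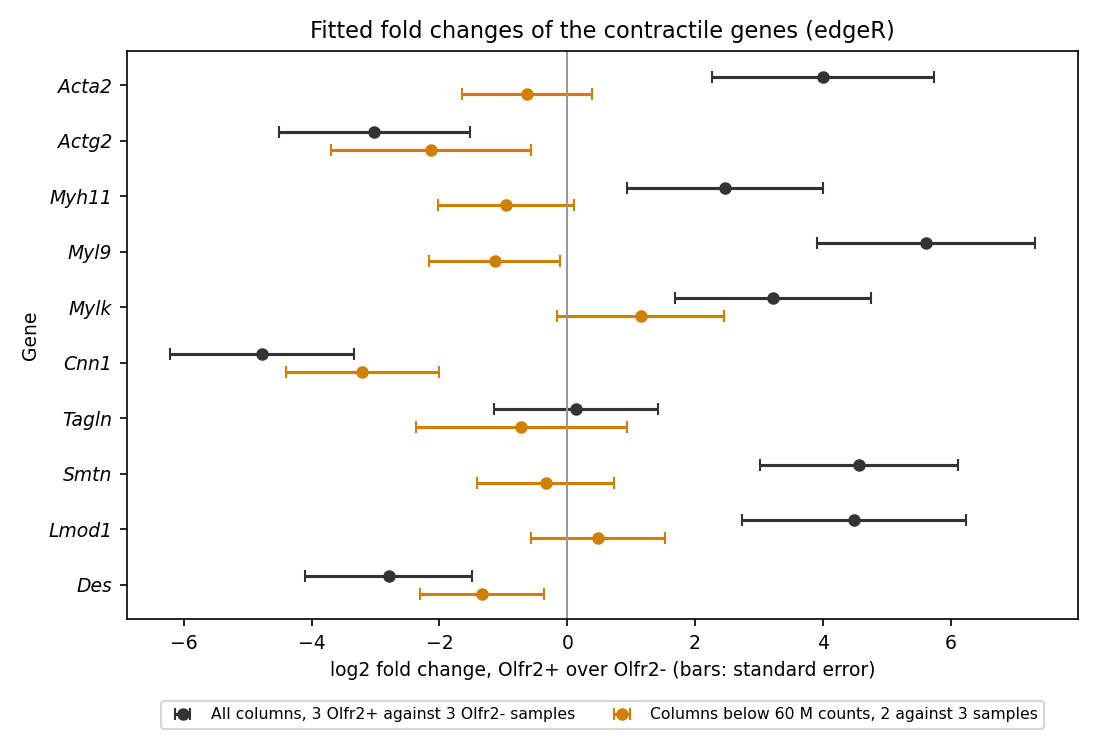
Fitted log2 fold changes of the 10 genes, Olfr2+ over Olfr2-, with standard errors as bars, over all columns (dark) and over the columns below 60 M counts (orange). The dark points run from -4.78 for Cnn1 to 5.61 for Myl9, and the orange points from -3.21 for Cnn1 to 1.15 for Mylk.

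The column values show how uneven the high levels were. Summed over the 10 genes, the level was 85.4 to 290.3 CPM (median 128.95) in the deeper Olfr2+ columns, 4.15 to 15.7 CPM in the shallower Olfr2+ columns and 5.17 to 28.0 CPM in Olfr2- columns. A single gene supplied much of the sum in the deeper columns, as shares of CPM that are not scaled by gene length. Myl9 made up 92.9% of it in column 2A and 57.6% in 2B, and Lmod1 58.7% in 2C. Smtn supplied 38.8% in column 2D, 70.4% in 3B and 59.96% in 3C, and Myh11 35.1% in 3A. Between 1 and 5 of the 10 genes exceeded 10 CPM in each of these columns, and none did in any other column. In Olfr2- columns the leading gene held 20.7 to 26.4% of the sum, and 8 to 10 of the 10 genes had at least 3 counts. The deeper Olfr2+ columns, with more counts, had 6 to 8 genes at that level. A column with a high level of 1 contractile gene thus often lacked others: in 2A, Myl9 stood at 79.3 CPM with Acta2 at 0.221 CPM and Cnn1 at 0 counts.

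Columns that share a library name differed by large factors. For Lmod1, column 2C held 10384 counts and column 2D held 32, from totals of similar size. For Myh11, column 3A held 5220 counts and column 3B held 29. For Smtn the order of that pair was opposite, with 133 counts in 3A and 5719 in 3B. Over 7 such pairs of columns and 10 genes, 27 of 70 pairs of values differed by over 2-fold and 12 by over 8-fold on the CPM + 1 scale. All 12 were in pairs labelled Olfr2+, and 2 of them in columns 3C and 3D, which lie in different depth sets. The highest value of a member in an Olfr2- column was 7.19 CPM, so adding 1 CPM left such a difference hardly possible there. In CPM alone, Olfr2- columns 3A and 3B stood at 0.244 and 6.03 for Myh11, and at 0.169 and 4.24 for Des. The median difference of the members ran from 0.29 to 2.92 on the log2(CPM + 1) scale, and that of 10 widely expressed relatives, such as Actb and Vim, from 0.23 to 1.06. Over all 14558 genes averaging at least 1 CPM it ran from 0.90 to 1.66. The members' median was below that of these genes in 5 of the 7 pairs. However, Tagln, Cnn1, Des and Actg2 averaged under 1 CPM, where adding 1 CPM keeps differences small. The medians are therefore not of like genes and do not show that the members repeated better.

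**Figure D3:**
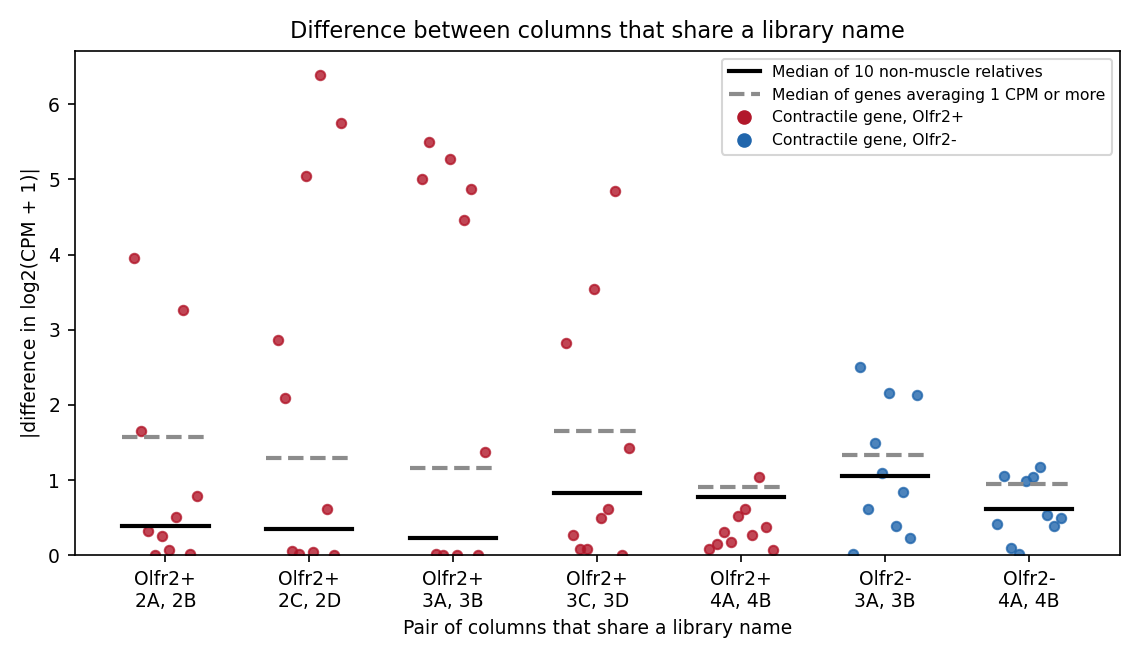
Absolute difference in log2(CPM + 1) between the columns of each pair that shares a library name (horizontal axis), 1 point per contractile gene, red for Olfr2+ and blue for Olfr2-. Black lines mark the median of 10 non-muscle relatives and dashed grey lines that of genes averaging 1 CPM or more. The highest point, at 6.39, is Lmod1 in columns 2C and 2D.

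Across the 15 columns the members showed little common variation. The 45 pairs of members had a median Pearson correlation of -0.0016 in log2(CPM + 1), with 7 pairs over 0.5 and 23 below 0. The pairs of 10 fibroblast markers had a median of 0.85, and all 45 of them were over 0.5. Other lists had low medians too, at 0.093 for pairs of macrophage markers, 0.029 for pairs of endothelial markers and 0.037 for pairs of 24 other genes of the contractile machinery. The highest values were 0.81 for Cnn1 with Des (Spearman 0.85) and 0.71 for Acta2 with Myl9 (Spearman 0.56). Cnn1 and Des were at or near 0 in the deeper Olfr2+ columns and had counts in every Olfr2- column. Acta2 and Myl9, whose upstream stretches are printed above, were both high in columns 2B, 2D, 3A and 3C. Myl9 was also high in 2A, where Acta2 was not. Myh11, which shares its filaments with both, had correlations of 0.55 with Acta2 and 0.39 with Myl9, and -0.24 with Smtn. Points share libraries, depth sets and a pool of mice, and many values are a few counts.

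Among 8746 genes averaging at least 10 CPM, those whose pattern over the 15 columns was most like that of Acta2 were Vstm4, Pir, Meox2, Acd and Jam2, with Pearson correlations of 0.94 to 0.96. For Myh11 they were Coro2b at 0.80, then Adgra3, Rptor, Rnf123 and Tmem86a at 0.72 to 0.73.

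Set per kilobase of exon, the order of median levels in the deeper Olfr2+ columns was Myl9 (36.5 CPM per kb), Smtn (16.6), Acta2 (3.65), Mylk (0.992), Myh11 (0.508), Lmod1 (0.228), Tagln (0.0382) and Des (0.00311), with Cnn1 and Actg2 at 0. In the shallower Olfr2+ columns Smtn led with 0.391 CPM per kb, before Myl9 with 0.259 and Myh11 with 0.140. Olfr2- columns had a flatter order, from Myl9 at 0.954 CPM per kb, Smtn at 0.671, Myh11 at 0.540 and Acta2 at 0.513, to Actg2 at 0.109 and Tagln at 0.0471. In each set the ranges over columns of neighbours in the order overlapped.

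Each contractile gene was set against a relative that most cells express. Acta2 was 0.00299 to 1.00% of Actb, the cytoplasmic β-actin, per kilobase in the deeper Olfr2+ columns, 0.00124 to 0.00517% in the shallower Olfr2+ columns and 0.00379 to 0.0118% in Olfr2- columns. Muscle actin was thus a trace beside cytoplasmic actin in each column. Myh11 reached the highest single value, at up to 90.8% of Myh9, the non-muscle myosin heavy chain, in the deeper Olfr2+ columns. Its highest values were 0.780% in the shallower Olfr2+ columns and 7.98% in Olfr2- columns. The medians of Myh11 were 1.35, 0.496 and 2.26% in the same order of sets, so the deeper set was not higher by median. Myl9 reached 76.1% of Myl12a, a light chain of non-muscle myosin, in the deeper Olfr2+ columns, and at most 0.634% and 12.4% in the shallower Olfr2+ and the Olfr2- columns. Its medians were 27.4, 0.552 and 7.04%. In no column did Acta2, Actg2, Myh11, Tagln, Cnn1, Myl9 or Des exceed the relative it was set against (Actb, Actg1, Myh9, Tagln2, Cnn2, Myl12a or Vim).

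Of these 10 relatives, 1 rose and 0 fell in libraries labelled Olfr2+. It was Cnn3, a calponin of non-muscle cells, with a log2 fold change of 5.50 (edgeR, SE 1.35, adjusted p = 0.0433), opposite in sign to the value of Cnn1. Cnn3 was at 3.44 to 368 CPM in the deeper Olfr2+ columns, 3.01 to 9.87 CPM in the shallower Olfr2+ columns and 3.16 to 9.06 CPM in Olfr2- columns. Log2 fold changes of the other 9, which did not pass, were 0.24 for Actb, 3.30 for Actg1, 1.09 for Myh9, 4.32 for Myh10, 2.703 for Myl12a, 1.60 for Myl12b, 1.38 for Tagln2, 1.47 for Cnn2 and 1.32 for Vim. The 10 had a median log2 fold change of 1.53, against 0.24 over all genes. As CPM of library totals, their sum went the other way, at 9313 to 10441 CPM in the deeper Olfr2+ columns, 18250 to 20231 CPM in the shallower Olfr2+ columns and 14545 to 23843 CPM in Olfr2- columns. Actb made up most of this sum in Olfr2- columns, with medians of 4742, 15976 and 16164 CPM in the same order of sets. The other 9 each had a higher median in the deeper Olfr2+ columns than in Olfr2- columns.

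Among 24 other genes of the contractile machinery, its signalling and its anchoring, 1 rose and 0 fell, and the median log2 fold change was 1.57. With library totals alone 0 were called higher and 1 lower. Below 60 M the median was -0.38, with 14 of 24 values negative. This was near all genes tested there, with a median of -0.43 and 40.2% of values positive. Cav1, the coat protein of caveolae, had a log2 fold change of 5.59 (edgeR, SE 1.33, adjusted p = 0.0413). It was at 2.86 to 216 CPM in the deeper Olfr2+ columns, 1.42 to 43.2 CPM in the shallower Olfr2+ columns and 2.31 to 6.93 CPM in Olfr2- columns. Caveolae are also a feature of fibroblasts and endothelium. Among the most abundant of the list were Flna (filamin A), with a log2 fold change of 2.17, Tln1 (talin 1) with 1.21 and Rhoa with 0.60, none of which passed.

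Of 14 transcription factors, co-factors and signalling genes that act on the contractile programme, 0 rose and 0 fell by edgeR, with 6 higher at an unadjusted p under 0.05 and a median log2 fold change of 2.11. DESeq2 called 4 of them higher and limma-voom 0. The most abundant were Klf4, a repressor of contractile genes in smooth muscle and a factor of macrophages too, with a log2 fold change of 1.82, Tgfbr2 with 3.01, Smad3 with 3.77 and Mef2c with -0.50. Myocd and Srf were picked out after their values were seen. Myocd was at 0 to 0.0815 CPM in the deeper Olfr2+ columns, 0.373 to 0.827 CPM in the shallower Olfr2+ columns and 0.244 to 2.20 CPM in Olfr2- columns. The deeper columns were thus the lowest for this co-activator, with 4 of 7 at 0 counts, and its log2 fold change was -1.84 (edgeR, SE 1.26, adjusted p = 0.281). Srf was at 0.211 to 46.2 CPM, 1.80 to 8.33 CPM and 2.51 to 32.5 CPM in the same sets, with a log2 fold change of 0.22 (edgeR, SE 1.40, adjusted p = 0.917).

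Genes raised when aortic smooth muscle cells leave the contractile state were counted as well; several are also fibroblast or macrophage genes. Of 10, 1 rose and 0 fell. This was Ly6c1, with a log2 fold change of 5.40 (edgeR, SE 1.30, adjusted p = 0.0422), at 33.0 to 466 CPM in the deeper Olfr2+ columns, 5.38 to 20.1 CPM in the shallower Olfr2+ columns and 5.15 to 14.1 CPM in Olfr2- columns. The most abundant members, Fn1 (2.42), Lgals3 (1.89), Mgp (1.66) and Ly6a (3.05), had positive log2 fold changes that did not pass.

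Among the cell marker lists, the fibroblast sum was higher in every deeper Olfr2+ column than in any other column. The macrophage, pericyte, endothelial and striated muscle sums of the deeper Olfr2+ columns overlapped with those of Olfr2- columns. The 10 fibroblast markers summed to 31781 to 38427 CPM in the deeper Olfr2+ columns, 2638 to 4988 CPM in the shallower Olfr2+ columns and 2281 to 4002 CPM in Olfr2- columns. Of these, 9 rose and 0 fell over all columns, among them Dcn, which had a log2 fold change of 4.09 (edgeR, SE 0.69, adjusted p = 0.0181). The others that rose were Col1a1, Col1a2, Col3a1, Serpinf1, Pi16, Lum, Pdgfra and Mfap5. The 16 macrophage markers summed to 9445 to 17420 CPM, 5051 to 7838 CPM and 4315 to 11126 CPM in the same sets, and 4 of them (Lyz2, Cd14, C1qb and C1qc) rose and 0 fell, where 0 did with library totals alone. Lyz2, the lysozyme gene of myeloid cells, alone was at 4740 to 10335 CPM in the deeper Olfr2+ columns. Some other macrophage markers had lower CPM of totals in the deeper columns, and Itgam, an integrin of myeloid cells, was picked out for its values. It was at 24.7 to 132 CPM there, 298 to 367 CPM in the shallower Olfr2+ columns and 151 to 518 CPM in Olfr2- columns. The median of Ptprc, which encodes the leukocyte antigen CD45, was 479, 1590 and 1561 CPM in the same order of sets, and that of Fcer1g was 420, 1100 and 960 CPM. With TMM scaling, all 16 macrophage markers had positive fitted log2 fold changes over all columns, at 0.15 for Itgam, 0.37 for Ptprc and 0.42 for Fcer1g. The part of these markers of other cells in the levels of the contractile genes was not tested.

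Pericytes, the mural cells of small vessels, share Acta2, Myl9 and Mylk with smooth muscle. The 10 pericyte markers summed to 424 to 901 CPM in the deeper Olfr2+ columns, 96.7 to 225 CPM in the shallower Olfr2+ columns and 68.8 to 710 CPM in Olfr2- columns, and 0 rose and 0 fell by edgeR, with 3 higher and 1 lower at an unadjusted p under 0.05. DESeq2 called 3 higher and 1 lower, and limma-voom 0. In the deeper columns their sum came mostly from Abcc9 and Pdgfrb. Kcnj8 had a log2 fold change of 5.34 (edgeR, SE 1.44, adjusted p = 0.0535), Ndufa4l2 of 5.85, Pdgfrb of 3.56 and Abcc9 of 1.87. Rgs5, Cspg4 and Notch3, markers of the same list picked out after their values were seen, went the other way. They had medians of 0.0129, 0.0518 and 0.174 CPM in the deeper Olfr2+ columns, against 2.09, 3.84 and 3.74 CPM in Olfr2- columns. Single deeper columns were higher, with Rgs5 up to 5.16, Cspg4 up to 10.7 and Notch3 up to 3.19 CPM, against highest values of 4.15, 14.1 and 9.43 CPM in Olfr2- columns.

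The 10 endothelial markers summed to 123 to 794 CPM in the deeper Olfr2+ columns, 39.1 to 271 CPM in the shallower Olfr2+ columns and 44.0 to 217 CPM in Olfr2- columns. Of these, 1 rose and 0 fell, the TGF-β co-receptor Eng with a log2 fold change of 5.69 (edgeR, SE 1.22, adjusted p = 0.0295). Pecam1, Vwf and Tek had log2 fold changes of 0.62, 1.61 and 3.42 and did not pass. The 16 striated muscle genes summed to 2.7004 to 65.3 CPM, 18.2 to 41.4 CPM and 44.0 to 77.5 CPM in the same sets. Of the 15 tested, 0 rose and 0 fell by edgeR, with 2 higher and 3 lower at an unadjusted p under 0.05 and a median log2 fold change of -1.96. At an adjusted p under 0.05, DESeq2 called 2 striated muscle genes higher and 3 lower, and limma-voom called 0. The most abundant were Ttn (-1.88), Tnnt3 (4.67), Actn2 (-4.72) and Tnni2 (4.14), 4 genes of the skeletal or cardiac sarcomere with both signs. A further one, Tnnc1, picked out for its values, had 0 counts in every Olfr2+ column. It also had 0 counts in 2 Olfr2- columns, and its highest value was 36 counts in Olfr2- column 1A, with an Olfr2- median of 0.0239 CPM. In the columns below 60 M counts, edgeR and limma-voom called 0 genes of these 9 lists, where each list had 0 to 2 genes at an unadjusted p under 0.05 by edgeR and DESeq2 called 0 to 2 of each. Log2 fold changes there were 0.87 for Cnn3, 2.92 for Cav1, 0.73 for Ly6c1, 0.97 for Dcn and 4.04 for Eng, and the median log2 fold change of the pericyte markers was -1.20, against 1.93 over all columns. Over all columns, edgeR called 0 genes of the 9 lists once Olfr2+ column 2D or 4B was left out.

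**Figure D4:**
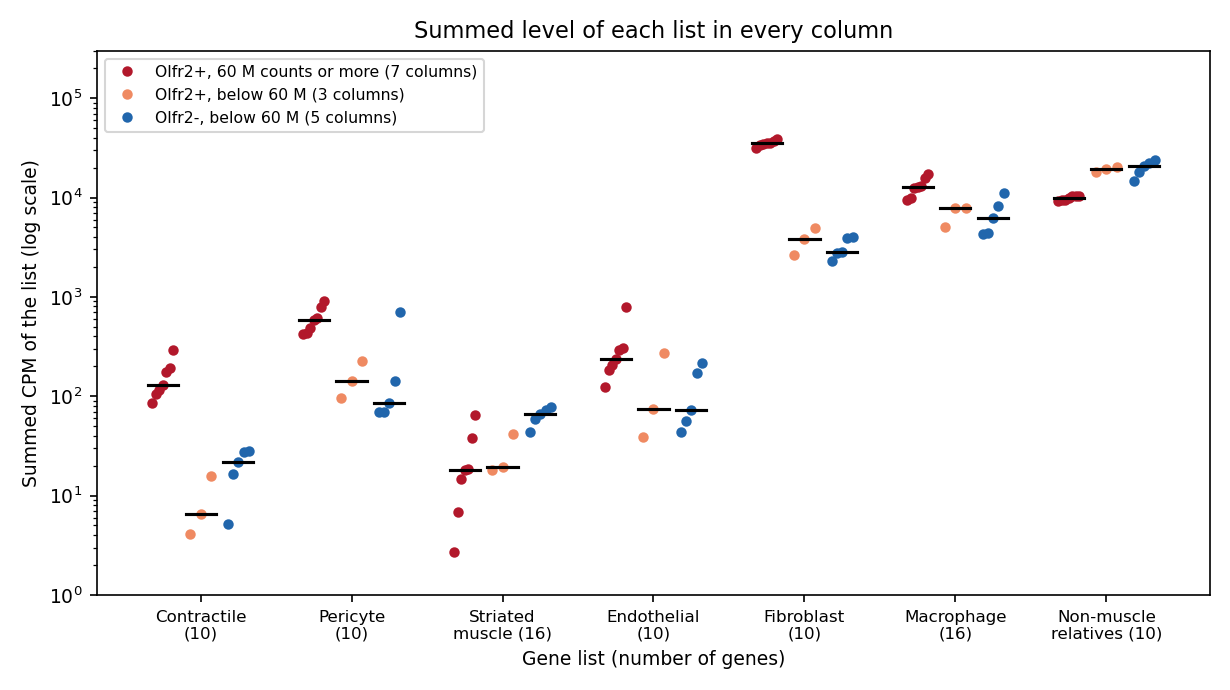
Summed CPM of each gene list (horizontal axis, with its number of genes) in every column on a log scale, for the deeper Olfr2+ columns (red), the shallower Olfr2+ columns (orange) and the Olfr2- columns (blue), with medians as lines. The contractile genes lie at 85.4 to 290.3 CPM in the deeper Olfr2+ columns and at 4.15 to 28.0 CPM elsewhere, far under the fibroblast and macrophage sums in each set.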

How the data were processed

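The deposited values were raw whole-number counts of reads per gene, made by the authors; the build GRCm39 and the tools STAR 2.7.1, DESeq2 1.34 and DRAGEN are named, without their roles, per the submitters' processing notes. The strand setting is not given in the sources used here. Reads carry no molecular identifiers, so intervals and limits from counts cover counting error only. From 8 library names and the numbers in the titles, columns were read as repeats and summed to 3 samples a label, with 30.5 to 363.9 M counts each. This reading is not stated in the labels. Levels are CPM of the column or sample total, unless TMM scaling is named. Lengths come from GENCODE on GRCm38, which held 99.1% of the gene identifiers, so no gene coordinates are given.

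Genes were tested with edgeR 4.0.16 in R 4.3.3 (quasi-likelihood F test, TMM, filter by group, Benjamini-Hochberg over all genes, 0.05). DESeq2 1.42.0, limma-voom (limma 3.58.1), other scalings, filters and units, a replicate block and leaving out each sample served as alternatives. The omission of each column was added after seeing the data. The fits were tested on simulated data. The 10 genes and the 9 other lists were chosen with earlier results of these data known. Named are all 10 genes, Olfr2, list genes that passed, the 4 most abundant of each list (10 for the non-muscle relatives; 1 gene is not reported here), the 5 genes most like Acta2 and Myh11, and those said to be picked out. Samples that share the numbers 3 and 4 were not treated as paired. Their deviations from the group means correlated by 0.013 and -0.072 over genes. The Olfr2+ samples mix depth sets, so these values cannot exclude pairing.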

Additional observations from a re-analysis of the deposited data

Results flagged for a closer look

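Each of the 10 genes and their sum were examined within each label, which made 22 sets of columns, and 8 had a column far from the others by Dixon's criterion. The criterion is set to mark about 1 in 20 sets of independent, normally distributed values. These CPM were skewed, with many at 0 for some genes, and the Olfr2+ sets mixed deeper and shallower columns. Columns that share a number are also repeats and not independent, so that rate does not apply here. For Acta2, Olfr2+ column 3A was at 34.5 CPM and the next column at 17.9 CPM. Myh11 was at 61.0 CPM in the same column, with the next at 14.4 CPM. Lmod1 reached 112.7 CPM in Olfr2+ column 2C, where the next column had 23.4 CPM, and Mylk reached 82.8 CPM in Olfr2+ column 2D, where the next had 30.4 CPM. The 4 other cases rest on few counts. Tagln was at 0.547 CPM in Olfr2+ column 2A with the next at 0.241 CPM, and Cnn1 at 0.134 CPM in Olfr2+ column 4B with the next at 0.0591 CPM. Actg2 was at 0.301 CPM in Olfr2+ column 4B with the next at 0.0209 CPM, and at 1.67 CPM in Olfr2- column 1A with the next at 0.468 CPM. In Olfr2+ column 3A both the main actin and the main myosin of smooth muscle were at their highest, with Myl9 at 42.4 CPM and Lmod1 at 23.4 CPM, while Cnn1, Actg2 and Tagln had 0 counts there.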

How the results depend on the processing

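Of the comparisons of members and counts with their alternatives over all columns, 242 kept their direction and side of the threshold, 14 came to pass it and 9 changed sign; below 60 M counts 157 were kept and 10 changed sign. Members called over all columns (0 higher, 0 lower) became 1 higher without a filter on low counts (Myl9), and 5 higher and 1 lower with DESeq2. Leaving out a sample or a column gave 0 to 2 members higher and 0 to 1 lower. Genes called over all columns (273 higher, 112 lower) were 80 and 256 with library totals, 642 and 239 without a filter, 4017 and 2690 with DESeq2, 0 and 0 with limma-voom, 649 and 244 with every column as a unit, and 0 and 0 among genes averaging 10 CPM or more, a filter that only Myl9 and Smtn of the members pass. Leaving out 1 sample or column gave 0 to 1026 higher and 0 to 488 lower. Below 60 M (0 and 0), there were 150 and 46 without a filter and 1043 and 213 with DESeq2, and leaving out a sample or column gave 0 to 2 higher and 0 lower. The log2 fold change of Tagln over all columns (0.14) was -1.30 with library totals and -0.27 with limma-voom, and ran from -1.15 to 1.09 as samples or columns were left out. Below 60 M, that of Lmod1 (0.48) was -0.31 with library totals, -0.38 with limma-voom and -0.21 with columns as units, and -2.23 to 1.33 with omissions. That of Tagln (-0.72) was 0.11 with limma-voom. Omissions gave -0.998 to 0.27 for Smtn (-0.34) and -0.87 to 1.91 for Mylk (1.15). The causes were not tested. With the title number as a replicate block, 2 genes were called higher and 0 lower over all columns and 10 and 0 below 60 M; Tagln was -0.55 over all columns, and Tagln 0.48, Lmod1 -0.28 and Smtn 0.047 below 60 M. The block called 0 members, and the labels do not state whether the numbers pair the samples. Cnn1, Actg2 and Tagln rest on at most 88 counts a sample.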
